A study of Mus musculus with 20 samples.

Results

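The nuclear-encoded genes of oxidative phosphorylation were examined in 20 mouse RNA-seq libraries of skin and pancreas. Members were the protein-coding genes whose mouse symbol starts with Nduf, Uqcr or Atp5, with Cox4 to Cox8, or is one of Sdha to Sdhd, which gave 94 of the 55471 genes in the table. They comprised 36 genes of complex I with 8 of its assembly factors, 4 of complex II, 8 of complex III, 20 of complex IV and 18 of ATP synthase. The 36, 20 and 18 include minor tissue isoforms, and Ndufa4 and Ndufa4l2 were placed with complex IV.

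All mice were wild type (WT), and the methods name C57BL/6 as the WT strain that was bought. Skin mice were 4 to 6 weeks old at the start and received either the contact allergen DNFB (5 libraries) or its vehicle, acetone with olive oil, called acetone here (5 libraries). The allergen was put on the abdomen for sensitization, at 0.5% and then at 0.25%, and later on the back at 0.25%, 3 times a week over 22 days, and the epidermis was isolated. The labels call this tissue epithelial skin. Pancreas was taken from mice injected with PBS (5 libraries) or with 50 μg/kg caerulein, a peptide that overstimulates the enzyme-secreting acinar cells (5 libraries), by 6 hourly injections on 3 days a week for 3 weeks. The age of the pancreas mice was not given in the sources used here. Nothing in the labels says which libraries came from separate mice, so the p-values measure the spread between these libraries only.

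Oxidative phosphorylation is carried out in the inner mitochondrial membrane. Complexes I and II pass electrons from NADH and succinate to ubiquinone, complex III passes them on to cytochrome c and complex IV to oxygen, and ATP synthase uses the proton gradient that complexes I, III and IV build. Most subunits are made from nuclear genes and imported, while a core set is encoded by mitochondrial DNA. Several complex IV subunits exist as a form found in most tissues and a form typical of heart and skeletal muscle, such as Cox8a and Cox8b.

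Some nuclear genes of the pathway carry in their promoters binding motifs for NRF1, a regulator of mitochondrial genes, and for ETS factors. RefSeq promoters of GRCm38.p6 were each 300 bases long and reached 250 bases before the start. They were taken for 74 of the 94 members (79 promoters) and searched on both strands. The other members were not searched, so the member percentages describe these 79 promoters only. The NRF1 half-site TGCGCA, a palindrome, stood in 24.1% of them and in 7.76% of the 32851 promoters of all genes. This short motif replaced a longer one after the data were seen, so its percentages are a description only. The ETS core CCGGAAG stood in 22.8% against 8.86%, the GC box GGGCGG in 43.0% against 35.7% and the TATA box TATAAA in 10.1% against 13.6%. None of these motifs contains another. The promoters of 2 isoform pairs, chosen because the libraries held one form of each pair in abundance and the other hardly at all, and of Uqcrc1, a core subunit of complex III with NRF1 half-sites, are shown with the matched motifs of either strand in capitals.
Cox7a2 promoter, chr9:79759804-79760103, minus strand: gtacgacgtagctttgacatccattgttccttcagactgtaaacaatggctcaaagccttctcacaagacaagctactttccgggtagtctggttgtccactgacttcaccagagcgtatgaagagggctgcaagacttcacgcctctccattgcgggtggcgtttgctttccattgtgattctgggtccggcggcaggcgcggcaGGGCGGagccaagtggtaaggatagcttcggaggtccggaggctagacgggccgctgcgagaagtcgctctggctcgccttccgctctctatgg
Cox7a1 promoter, chr7:30183921-30184220, plus strand: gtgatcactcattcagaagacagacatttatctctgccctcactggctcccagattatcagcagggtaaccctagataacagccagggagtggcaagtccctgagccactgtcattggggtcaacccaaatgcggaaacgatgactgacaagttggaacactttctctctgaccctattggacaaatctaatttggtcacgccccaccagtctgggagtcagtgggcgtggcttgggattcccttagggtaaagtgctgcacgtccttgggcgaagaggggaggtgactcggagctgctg
Cox8a promoter, chr19:7217567-7217866, minus strand: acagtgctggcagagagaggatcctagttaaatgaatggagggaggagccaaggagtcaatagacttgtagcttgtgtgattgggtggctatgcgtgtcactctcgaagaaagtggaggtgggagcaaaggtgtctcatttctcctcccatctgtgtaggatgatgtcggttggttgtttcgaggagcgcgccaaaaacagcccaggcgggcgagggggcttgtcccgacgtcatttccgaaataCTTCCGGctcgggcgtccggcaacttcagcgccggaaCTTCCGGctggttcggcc
Cox8b promoter, chr7:140900397-140900696, minus strand: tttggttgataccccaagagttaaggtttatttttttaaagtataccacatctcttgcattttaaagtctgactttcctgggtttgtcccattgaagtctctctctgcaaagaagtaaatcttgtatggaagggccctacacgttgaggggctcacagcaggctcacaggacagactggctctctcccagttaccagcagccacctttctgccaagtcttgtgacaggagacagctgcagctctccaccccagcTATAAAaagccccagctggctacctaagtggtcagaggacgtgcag
Uqcrc1 promoter, chr9:108936398-108936697, plus strand: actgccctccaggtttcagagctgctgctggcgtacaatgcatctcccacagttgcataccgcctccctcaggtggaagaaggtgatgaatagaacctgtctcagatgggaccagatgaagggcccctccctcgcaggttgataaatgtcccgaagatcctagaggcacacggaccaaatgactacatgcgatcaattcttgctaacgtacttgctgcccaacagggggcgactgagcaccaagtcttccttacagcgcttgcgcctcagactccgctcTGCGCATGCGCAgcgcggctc

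Cox8a carried 2 ETS cores, Cox7a2 carried a GC box, and Cox7a1 held none of the 4 motifs in this window. Cox8b carried the letters TATAAA from base 255 of the window, which lies after the annotated start and not before it. Uqcrc1 carried 2 adjoining NRF1 half-sites close to its start. A match is a description of the letters only.

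Depth limited what could be seen of the members. Libraries held 791491 to 2232039 counts, of which 37.9% to 94.3% fell on 12 satellite-like predicted genes. This left 45100 to 858617 counts on other protein-coding genes of the nuclear genome, and 84 to 13832 counts on the 94 members together. Acetone libraries 11 and 12 were the 2 deepest of all, with 858617 and 689531 protein-coding counts, while the other 3 acetone libraries held 52054 to 81282. Defining markers set the 2 tissues apart. The 6 keratinocyte genes held 0.149% to 1.38% of the protein-coding counts in acetone skin and 0.132% to 1.38% in DNFB skin. In any pancreas library they held at most 0.0157%. The 10 acinar genes held 10.5% to 42.0% in PBS pancreas and at most 0.0334% in skin. Striated muscle genes (6, among them Acta1 and Ckm) held 0.0596% to 0.181% in acetone skin and 0.0455% to 0.126% in DNFB skin, so muscle RNA was present in the skin libraries. In acetone library 3 the muscle genes held 0.134% beside 0.149% for the keratinocyte genes, so the skin libraries were not epidermis alone.

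A scale for these low counts came from 1468 olfactory and vomeronasal receptor genes, sensory genes whose protein products are not known to be needed in either tissue. Per kilobase of exon, the members together held 73.0 counts against 1.18 for the receptors in acetone library 11 and 27.3 against 0.993 in caerulein library 10. In PBS library 15 the members held 0.443 against 0.716, in PBS library 16 they held 0.765 against 0.718, and in PBS library 17 they held 0.849 against 0.987. In these 3 libraries the members together therefore stood no clearer of the receptor genes than a ratio of 0.619 to 1.07, and 38 to 58 of the 94 members had no count. In PBS libraries 7 and 8 the ratios were 3.88 and 7.25. With the median coding transcript as the length, the ratios of all 20 libraries ran from 0.927 to 92.6 in place of 0.619 to 61.8.

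**Figure D1:**
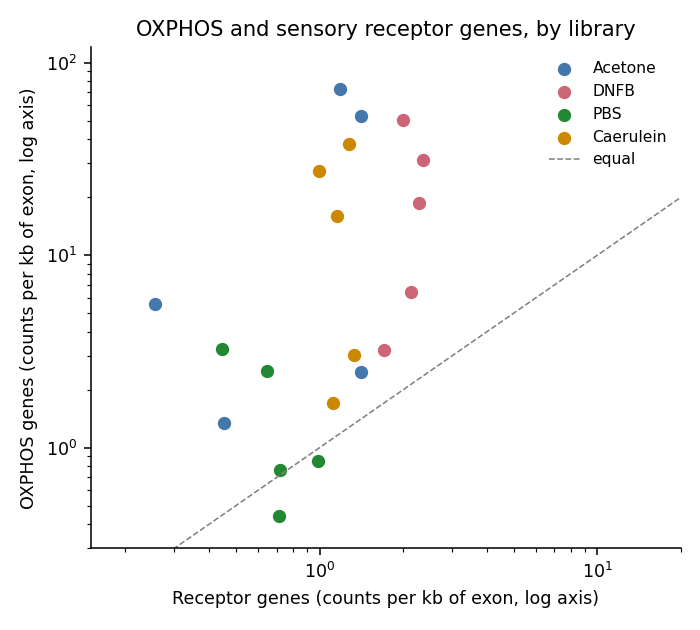
Summed counts per kilobase of exon of the 94 OXPHOS genes (vertical, log axis) against those of 1468 receptor genes (horizontal, log axis), 1 point per library, with colours for the 4 groups and a dashed line where both are equal. PBS libraries 15, 16 and 17 lie at the line, with ratios of 0.619 to 1.07, and acetone library 11 lies highest, at 73.0 counts per kilobase.

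The members took a lower share of the protein-coding counts in PBS pancreas than in the other groups. In PBS libraries 7, 8, 15, 16 and 17 the share was 0.310%, 0.419%, 0.186%, 0.296% and 0.273%, a mean of 0.297% ± 0.0835 (SD, n = 5). In caerulein libraries 9, 10, 18, 19 and 20 it was 0.564%, 1.16%, 0.612%, 1.11% and 1.64%, a mean of 1.02% ± 0.442 (SD, n = 5). Every caerulein library lay above every PBS library. The protein-coding counts that form the denominator include the 10 acinar genes. These held 10.5% to 42.0% of it in PBS and 0.811% to 12.2% in caerulein. Shares without them were not computed, so the separation holds for this denominator only. The 95% Wilson intervals of the single libraries, which cover counting error only, reached 0.453% at most in PBS and began at 0.506% in caerulein.

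The share was more variable in skin. Acetone libraries 1, 2, 3, 11 and 12 held 0.486%, 1.87%, 0.577%, 1.61% and 1.44%, a mean of 1.20% ± 0.629 (SD, n = 5). DNFB libraries 4, 5, 6, 13 and 14 held 1.45%, 0.678%, 2.22%, 1.39% and 0.871%, a mean of 1.32% ± 0.602 (SD, n = 5). The groups overlapped over most of their range, and their means differed by less than 1 SD of either.

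Other transcripts moved with the pancreas difference. The 10 acinar genes fell from 10.5% to 42.0% of the protein-coding counts in PBS to 0.811% to 12.2% in caerulein, and 9 of the 10 were called lower (median log2 fold change -3.58). The 5 leukocyte genes held 0.0144% to 0.0882% in PBS and 0.150% to 1.66% in caerulein, and 2 of the 4 tested, Cd74 and Lyz2, were called higher. The 4 fibroblast genes held 0.00849% to 0.366% in PBS and 0.169% to 1.21% in caerulein, with Dcn called higher. The 5 duct cell genes held 0.00612% to 0.0221% in PBS and 0.0611% to 0.344% in caerulein, without overlap, and 0 of the 2 tested, Krt18 and Krt8, were called. The part of these cell types in the members' difference was not tested. Set against the 76 cytosolic ribosomal protein genes, the members amounted to 21.5% ± 3.63 (SD, n = 5) of their counts in PBS and 28.0% ± 6.62 (SD, n = 5) in caerulein, and on this scale the groups overlapped, with 15.9% to 24.9% against 17.99% to 36.4%. The same ratio was 34.4% ± 12.97 (SD, n = 5) in acetone and 26.2% ± 2.57 (SD, n = 5) in DNFB skin, highest in the shallowest acetone library at 52.9%. In bulk tissue, a change in the cell types present and a change in RNA per cell cannot be told apart.

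**Figure D2:**
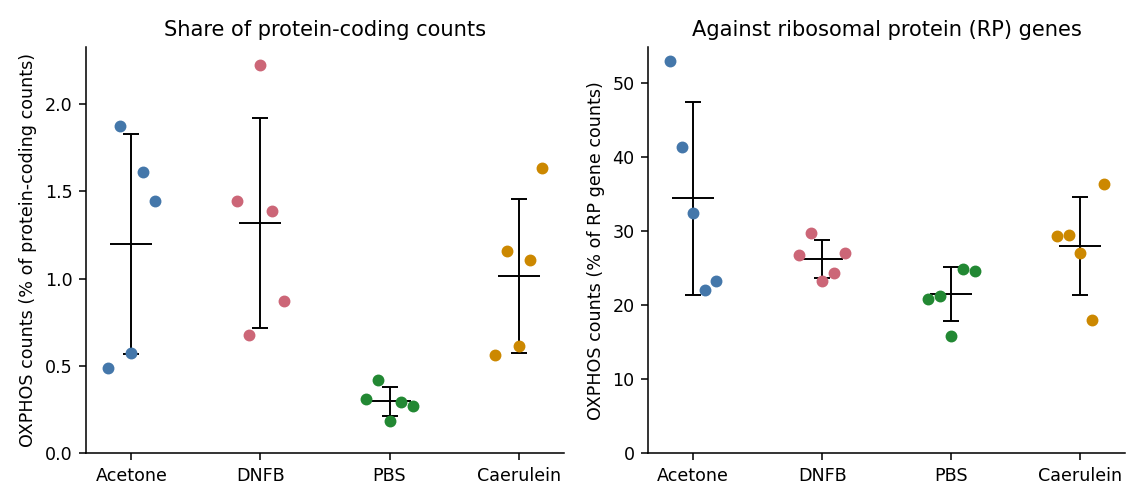
Summed counts on the 94 OXPHOS genes in each library (points, vertical axes from 0), as a percentage of the protein-coding counts (left) and of the counts on 76 ribosomal protein genes (right), with the mean and SD of the 5 libraries of each group in black. The caerulein points lie above all PBS points on the left and overlap with them on the right.

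Each of the complexes showed the low PBS share. Complex I genes took 0.132% ± 0.0404 of the protein-coding counts in PBS and 0.332% ± 0.121 in caerulein, ATP synthase genes 0.0624% ± 0.0133 and 0.275% ± 0.136, and complex IV genes 0.0487% ± 0.0287 and 0.238% ± 0.112 (SD, n = 5 each). Complex III genes took 0.0366% ± 0.00921 and 0.111% ± 0.0405, and complex II genes 0.00720% ± 0.00441 and 0.0404% ± 0.0301. The 8 assembly factors of complex I took 0.0104% ± 0.00440 and 0.0197% ± 0.00632. In PBS the complex I genes thus took the largest share of the 6 groups of genes, whereas in DNFB skin the ATP synthase genes did, at 0.459% ± 0.238 beside 0.389% ± 0.154 for complex I. In acetone skin the ATP synthase and complex I genes stood level, at 0.376% ± 0.199 and 0.377% ± 0.198. Complex I was the higher in acetone libraries 1, 2 and 3, and ATP synthase in the deep libraries 11 and 12.

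The differences of single members within skin were tested by edgeR's quasi-likelihood test over all 7265 genes that passed the filter on low counts, with Benjamini-Hochberg adjustment and a threshold of 0.05. Of the 94 members 75 were tested and 0 were called, beside 3 of all genes tested (0.0413%), and 0 of the 75 had an unadjusted p under 0.05. DESeq2 also called 0 members, beside 78 of 23116 genes given an adjusted p (0.337%). The log2 fold change of DNFB against acetone was above 0 for 45 and below 0 for 30, with a median of 0.06 beside 0.02 for all genes tested. The smallest p among the members was 0.126 (adjusted p = 0.932).

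No complex departed from this pattern. The median log2 fold change was 0.04 over 35 complex I genes, -0.01 over 4 complex II genes, -0.07 over 8 complex III genes, 0.08 over 12 complex IV genes and 0.22 over 15 ATP synthase genes. Among the catalytic and core subunits, the α and β subunits of the F1 motor, Atp5a1 and Atp5b, stood at 0.31 (SE 0.70) and 0.37 (SE 0.72). Ndufs1, the iron-sulfur subunit at the entry of complex I, stood at 0.50 (SE 0.44), Sdha, the flavoprotein of complex II, at 0.03 (SE 0.57), Uqcrc1 at -0.20 (SE 0.64) and Cox4i1, the main form of the first nuclear subunit of complex IV, at -0.13 (SE 0.66). These standard errors are larger than the differences in 5 of the 6 cases.

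The largest rises in skin were those of Cox5a, a nuclear subunit of complex IV, Ndufaf4, an assembly factor of complex I, and Atp5mpl, a small subunit of ATP synthase. Cox5a had 0, 17.04, 1.78, 27.3 and 26.3 normalized CPM (counts scaled to a library of 1e+06) in acetone libraries 1, 2, 3, 11 and 12, and 24.4, 5.10, 43.7, 32.9 and 15.6 in DNFB libraries 4, 5, 6, 13 and 14. Acetone libraries 1 and 3 were low, and the groups overlapped (log2 fold change 0.62, SE 0.67, edgeR adjusted p = 0.976). Ndufaf4 and Atp5mpl had log2 fold changes of 0.59 (SE 0.58) and 0.57 (SE 0.57), both with an edgeR adjusted p of 0.965.

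The largest falls were those of 3 accessory subunits of complex I. Ndufv3 had 3.22, 51.1, 5.34, 17.6 and 23.4 normalized CPM in the acetone libraries and 8.93, 8.49, 16.8, 10.6 and 6.69 in the DNFB libraries, a log2 fold change of -0.91 (SE 0.58, edgeR adjusted p = 0.935). Ndufa7 stood at -0.86 (SE 0.54, edgeR adjusted p = 0.932) and Ndufc1 at -0.49 (SE 0.68, edgeR adjusted p = 0.976). All 3 were highest in acetone library 2, and without this library Ndufc1 had a log2 fold change of 0.14. The DNFB and acetone libraries overlapped for each of the 75 tested members, where 91 of the 7265 genes tested (1.25%) had groups that did not overlap.

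The median in skin moved with single libraries. It was -0.25 without DNFB library 6 (15 members above 0 and 61 below) and -0.13 without acetone library 3, 0.24 without acetone library 11 and 0.14 without acetone library 12. Without both acetone libraries 11 and 12, 60 of 75 members had a positive log2 fold change, the median was 0.48 (0.16 over all genes tested) and 6 members had an unadjusted p under 0.05, all higher in DNFB, beside 523 of 7702 genes (6.79%) that were higher at that p. Of the members 0 passed the adjusted threshold, beside 0.013% of all genes. With ribosomal protein counts as library sizes the median was -0.38, beside -0.45 for all genes.

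Ndufa4l2 was the 1 member with a marked difference in skin that the filter had left out, and it is named as an isoform of Ndufa4. Its protein is a relative of Ndufa4 known as a target of the hypoxia-inducible factor. The gene (GRCm38, chr10:127514967-127517154, plus strand) had 1, 6, 3, 47 and 101 counts in acetone libraries 1, 2, 3, 11 and 12, and 0, 6, 3, 2 and 2 in DNFB libraries 4, 5, 6, 13 and 14. In normalized CPM this was 3.22, 17.04, 5.34, 9.17 and 27.1 against 0, 10.2, 1.12, 0.783 and 2.23. DNFB library 5 lay above 3 acetone libraries, while the other 4 DNFB libraries lay below all 5. Of the counts on the pair, Ndufa4l2 took 27.5% in acetone (158 of 574, Wilson interval 24.0% to 31.3%), 3.93% in DNFB (13 of 331, 2.31% to 6.60%), 0.699% in caerulein (2 of 286) and 1 of 10 counts in PBS. Without acetone library 12 the acetone share was 17.5% (57 of 325), and without DNFB library 5 the DNFB share was 2.22% (7 of 315).

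With no filter on low counts, in which 108 of 43251 genes (0.25%) were called in skin, Ndufa4l2 was the 1 member called, with a log2 fold change of -3.08 (SE 0.77, edgeR adjusted p = 0.0344). With a minimum count of 5 it stood at -2.85 (edgeR adjusted p = 0.300) and in DESeq2 at -2.63 (adjusted p = 0.377). Summed over the group, its 13 counts in DNFB were 11.9 per kilobase of exon beside 10.5 for the receptor genes in the same libraries, whereas its counts in acetone were 144 per kilobase beside 4.71. Most acetone counts (47 and 101 of 158) came from the 2 deep libraries. The 4 fibroblast genes, markers of a cell type of the dermis, took 0.0711% to 0.329% of the protein-coding counts in acetone and 0.0590% to 0.113% in DNFB, and their part in this difference was not tested.

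In pancreas far fewer members could be tested. The filter left 946 genes and 18 of the 94 members, 5 each of complex I, complex IV and ATP synthase and 3 of complex III, and 0 of complex II or of the assembly factors. A member could pass through its counts in caerulein alone, so the 18 are no random draw of the 94. By edgeR's quasi-likelihood test 1 member was called, higher in caerulein, beside 115 of all genes (12.2%), of which 77 were higher (8.14%). The log2 fold change was above 0 for 12 and below 0 for 6, with a median of 0.58 beside 0.00 for all genes tested, and 3 members had an unadjusted p under 0.05, all higher, beside 163 of the 946 genes (17.2%) that were higher at that p.

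The member called was Atp5a1 (GRCm38, chr18:77773729-77782869, plus strand), the α subunit of the catalytic head of ATP synthase. It had 8.79, 10.5, 1.98, 0 and 9.27 normalized CPM in PBS libraries 7, 8, 15, 16 and 17, and 4.85, 55.3, 12.5, 35.0 and 68.8 in caerulein libraries 9, 10, 18, 19 and 20. Caerulein library 9 lay among the PBS libraries, and the other 4 lay above them all. The log2 fold change was 2.47 (SE 0.79, edgeR adjusted p = 0.0451), resting on 25 counts in PBS and 785 in caerulein. The adjusted p ran from 0.00742 to 0.239 over the alternatives.

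Cox6c and Cox4i1, nuclear subunits of complex IV, came next. Cox6c had 5.86, 10.5, 0, 1.80 and 3.09 normalized CPM in PBS and 7.27, 19.04, 10.9, 12.4 and 21.2 in caerulein, with 1 PBS library inside the caerulein range (log2 fold change 1.61, SE 0.63, edgeR adjusted p = 0.0996). Cox4i1 had 32.2, 30.5, 1.98, 5.40 and 9.27 in PBS and 24.2, 51.4, 28.9, 43.3 and 94.2 in caerulein (log2 fold change 1.58, SE 0.71, edgeR adjusted p = 0.147). The 5 complex IV members tested all had a positive log2 fold change, from 0.26 for Cox6a1 to 1.61, and none of the 5 was called.

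At the other end stood 3 small accessory subunits. Ndufa2 of complex I had 57.1, 45.3, 25.8, 23.4 and 16.996 normalized CPM in PBS and 18.2, 21.4, 11.7, 15.7 and 16.3 in caerulein, so that 2 caerulein libraries lay inside the PBS range (log2 fold change -1.02, SE 0.55, edgeR adjusted p = 0.219). Uqcrq of complex III stood at -0.76 (SE 0.54, edgeR adjusted p = 0.347) and Ndufb7 of complex I at -0.55 (SE 0.54, edgeR adjusted p = 0.505). With library totals as the only scaling these 3 turned to 0.92, 1.14 and 1.47, since that scaling moved the median of all genes to 1.86. In normalized CPM 0 of the 18 tested members separated the groups, beside 24 of the 946 genes (2.54%) that were higher in every caerulein library than in every PBS library.

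**Figure D3:**
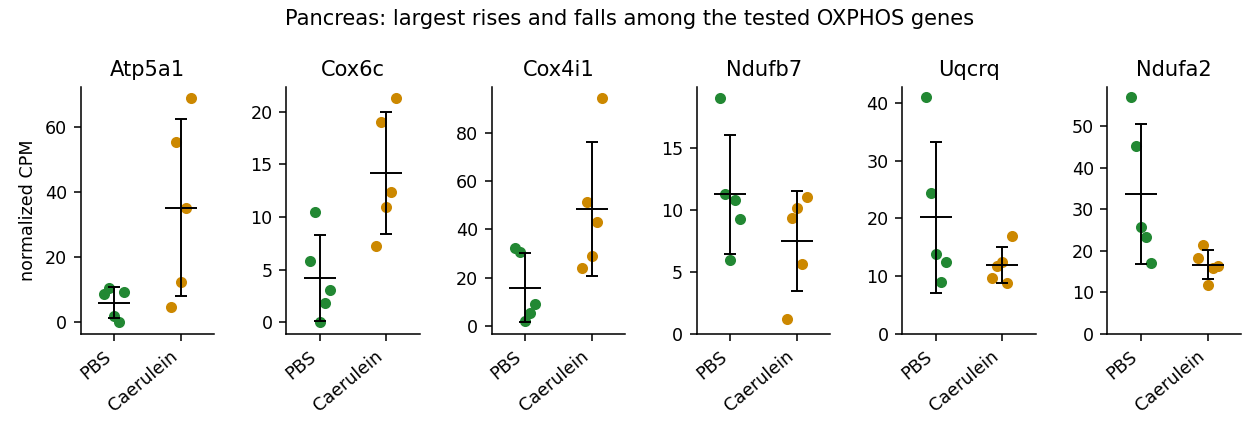
Normalized CPM (vertical axes, each with its own linear scale) of the 3 OXPHOS genes with the largest rises and the 3 with the largest falls in pancreas, in 5 PBS and 5 caerulein libraries, with mean and SD in black. Atp5a1, Cox6c and Cox4i1 have caerulein library 20 highest, at 68.8, 21.2 and 94.2, and all 6 genes have overlapping groups.

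**Figure D4:**
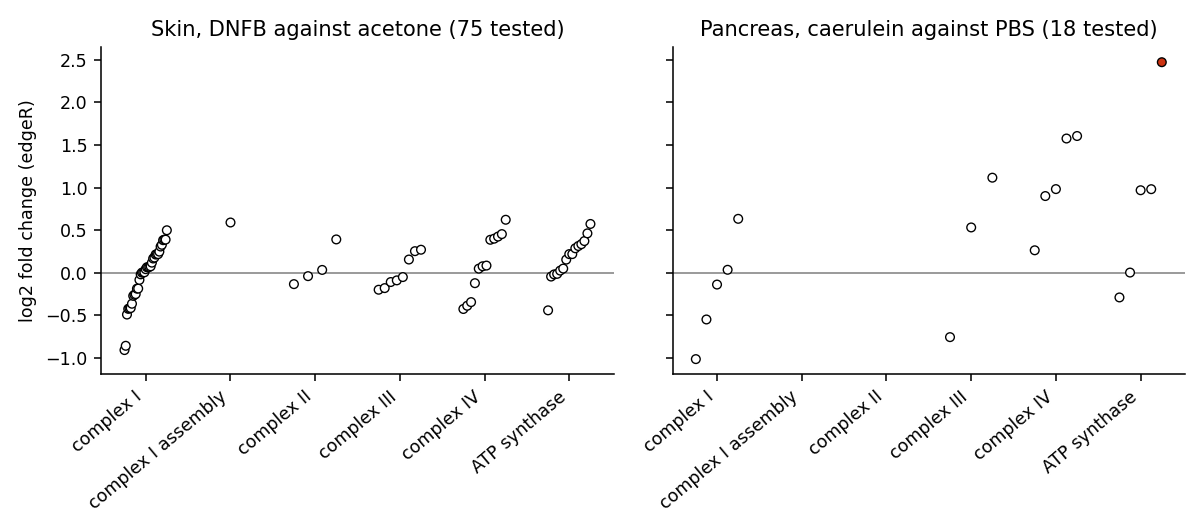
The log2 fold change of each tested OXPHOS gene (vertical axis), by complex (horizontal axis), for skin on the left (75 genes) and pancreas on the right (18 genes). Filled points passed the adjusted threshold of 0.05: none in skin, and Atp5a1 at 2.47 in pancreas.

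How many members were called in pancreas turned on the filter and the scaling. With no filter, 25 of 93 members were called higher and 0 lower, beside 1237 higher and 60 lower of 38895 genes (3.33%), and DESeq2 called 20 higher and 0 lower, beside 735 of 8618 genes given an adjusted p (8.53%). Core subunits called by both included Atp5a1, Atp5b, Atp5c1, Sdha, Uqcrc1, Uqcrc2 and Cox5a. Their counts in PBS were few: Atp5b had 3, 7, 2, 1 and 5 counts in PBS libraries 7, 8, 15, 16 and 17, and 8, 243, 13, 151 and 382 in caerulein libraries 9, 10, 18, 19 and 20. Uqcrc2 had 2, 0, 0, 1 and 0 against 7, 44, 6, 32 and 92, and Sdha 0, 4, 1, 1 and 1 against 3, 94, 2, 39 and 193. Caerulein libraries 9 and 18, the shallow ones, had single or low double digits for these genes. In normalized CPM these 2 libraries stood at 9.69 and 10.1 for Atp5b, beside at most 7.73 in PBS. They stood at 8.48 and 4.68 for Uqcrc2, beside at most 2.93, and at 3.64 and 1.56 for Sdha, beside at most 3.49. With ribosomal protein counts as library sizes 0 of the 18 were called, beside 0% of all 946 genes. The median was then 0.06 for the members and -0.68 for all genes.

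An interaction term in a fit of all 20 libraries compared the change in skin with that in pancreas. Of 79 members tested by edgeR 0 were called, beside 22 of 8336 genes (0.264%). The change in skin minus the change in pancreas was below 0 for 69 and above 0 for 10, with a median of -1.05 beside -0.38 for all genes, and 17 members had an unadjusted p under 0.05, all below 0, beside 1014 of the 8336 genes (12.2%) below 0 at that p. The smallest p was that of Atp5j, a subunit of the stalk of ATP synthase (log2 difference -3.55, SE 1.05, edgeR adjusted p = 0.0844). With no filter 13 members passed the threshold, all below 0, beside 76 genes above and 933 below 0 of 45075 (2.24%). In DESeq2 8 members passed, all below 0, beside 271 genes above and 604 below 0 of 16186 given an adjusted p (5.41%). By the main test a difference between the tissues was not detectable for any single member at this depth.

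The 2 control groups differed in few of the members that could be tested. Between acetone skin and PBS pancreas 14 members were tested and 2 called by edgeR, both higher in skin, beside 185 of 736 genes (25.1%), of which 88 were higher (12%). Atp5a1 stood at a log2 fold change of 3.13 (SE 0.92, edgeR adjusted p = 0.0155), with 14.7 to 125 normalized CPM in skin against 0 to 12.7 in pancreas. Cox6c (GRCm38, chr15:35925886-35938246, minus strand) stood at 1.98 (SE 0.66, edgeR adjusted p = 0.0294), with 15.6 to 26.7 against 0 to 12.7. For both, every skin library lay above every pancreas library, as held for 49 of the 736 genes tested (6.66%). Ndufa2 stood at -1.80 (SE 0.67, edgeR adjusted p = 0.0508). Without acetone libraries 11 and 12, 0 members were called, beside 11.5% of all genes, and with no filter 23 of 93 were, beside 3% of all genes. A member could pass the filter through its counts in skin alone. Atp5a1 had 25 counts in PBS and 1796 in acetone, and Cox6c had 19 and 360. In this comparison tissue cannot be told apart from how the tissue was taken or from depth. The acetone and PBS libraries of this comparison are also the controls of the comparisons within each tissue.

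Levels of different members were compared as counts per kilobase of exon, scaled to a sum of 1e+06 over protein-coding genes. In PBS pancreas Ndufa2 was highest, at 879 ± 269 (SD, n = 5), followed by Cox8a at 275 ± 223, Cox6a1 at 249 ± 205, Ndufa13 at 185 ± 88.2 and Uqcr11 at 178 ± 108. The step from Ndufa2 to Cox8a was larger than the SD of either, whereas the 4 that followed were not separable beyond their spread. In caerulein pancreas the order was Cox8a at 1143, Cox4i1 at 975, Ndufa2 at 935, Cox6a1 at 877 and Cox6b1 at 685. On this scale Ndufa2 was thus at a like level in PBS and caerulein, where most other members were lower in PBS. In normalized CPM, which is scaled otherwise, its means were 33.7 in PBS and 16.7 in caerulein. Ndufa2 overlaps Tmco6 on the opposite strand, and the protocol named in the labels marks no strand, so reads in the overlap cannot be told apart.

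In skin the leading members lay closer together. In acetone Ndufa1 stood at 900 ± 533, Uqcr11 at 878 ± 407, Cox8a at 865 ± 548, Cox4i1 at 855 ± 585 and Cox6a1 at 743 ± 564 (SD, n = 5 each), all within the SD of one another. In DNFB Cox8a stood at 1234 ± 715, Cox6a1 at 1161 ± 403, Cox6b1 at 975 ± 513, Atp5a1 at 826 ± 456 and Cox4i1 at 821 ± 330, so that Cox8a and Cox6a1 stood above Cox4i1 by more than its SD but within their own. These ranks depend on the length used: by the median coding transcript Ndufa1 in acetone ranked 14 in place of 1, and Ndufa2 in caerulein 7 in place of 3, while Ndufa2 remained at rank 1 in PBS.

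Isoforms typical of other tissues were rare. Cox4i1 took 99.8% of the Cox4i counts over all libraries, with 6 of 2620 counts on Cox4i2. Of the Cox8 counts 1378 of 1408 fell on Cox8a, the general form, 18 on Cox8b, the muscle form, and 12 on Cox8c, a form of testis. All 18 Cox8b counts were in skin, 11 in acetone and 7 in DNFB, with 0 of 446 Cox8 counts in caerulein (a share of up to 0.854% by the Wilson interval) and 0 of 48 in PBS. Cox6a2, the muscle form of Cox6a1, took 2.90% of the pair in acetone (13 of 448) and 2.67% in DNFB (11 of 412), 0.811% in caerulein (3 of 370) and 0 of 66 counts in PBS. In acetone its 19.1 counts per kilobase stood above the 4.71 of the receptor genes, and in caerulein its 4.41 lay under their 5.87. Cox7a1, the muscle form of Cox7a2, had 12 counts in all, beside 763 on Cox7a2 and 1123 on Cox7a2l. The skin libraries also held the striated muscle genes, and the part of that RNA in the Cox6a2 and Cox8b counts was not tested.

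The c ring of ATP synthase is made from 3 genes with the same mature protein. Atp5g1 took 78.4% of the Atp5g counts in PBS (58 of 74, Wilson interval 67.7% to 86.2%), 44.5% in caerulein (218 of 490, 40.1% to 48.9%), 51.5% in acetone and 42.9% in DNFB. Atp5g3 took 10.8%, 37.8%, 35.6% and 42.2% in the same order. In PBS Atp5g1 had 11.8 counts per kilobase of exon, while Atp5g2 and Atp5g3 had 4.78 and 3.67, close to the 3.51 of the receptor genes. All 8 Atp5g2 counts in PBS came from library 8. The Atp5g1 share in PBS was 68.2% without library 7 and 88.6% without library 8. Atp5g1 had counts that were not whole in 9 libraries and Atp5g2 in 11, since reads shared with other copies are split by the estimation, and the shares of both are uncertain for that reason.

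**Figure D5:**
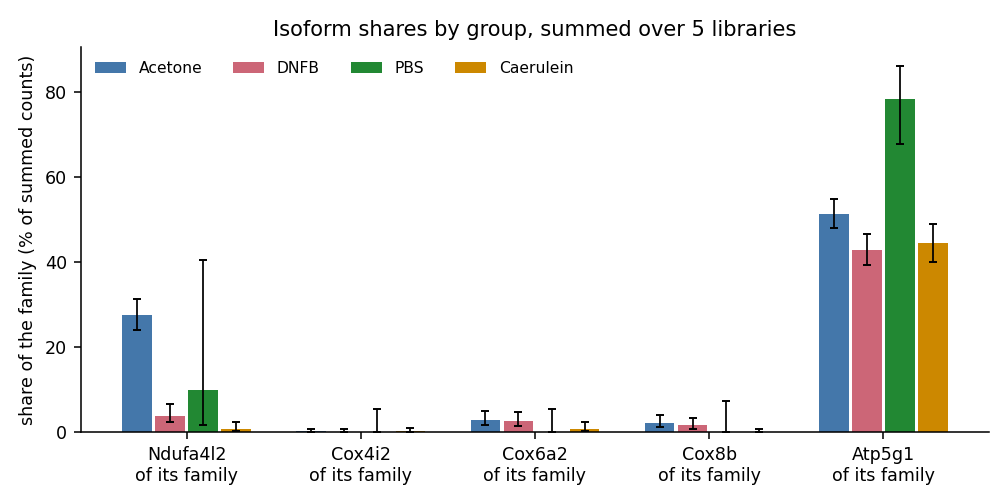
Share of 5 isoforms in the summed counts of their families (vertical axis, percent, from 0) in the 4 groups, each summed over 5 libraries, with 95% Wilson intervals that cover counting error only. Ndufa4l2 stands at 27.5% in acetone and 3.93% in DNFB, and Atp5g1 at 78.4% in PBS.

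Other genes of the pathway were taken from lists. In skin 0 genes were called among 16 tested electron carriers and assembly factors, 14 enzymes of the citrate cycle, 6 carriers and pores, 12 enzymes of glycolysis, 4 regulators and 12 mitochondrially encoded subunits. Of all genes tested in skin 0.0413% were called. The mitochondrially encoded subunits had a median log2 fold change of -0.80 in skin and -0.99 over the 11 tested in pancreas, where 0 were called. In pancreas Slc25a3, the phosphate carrier that supplies ATP synthase, was the 1 of 6 carriers and pores that could be tested and was higher in caerulein (log2 fold change 2.71, SE 0.77, edgeR adjusted p = 0.0342). Of 5 glycolytic enzymes tested 2 were called higher, Ldha, which makes lactate (3.48, SE 0.92, edgeR adjusted p = 0.0241), and Eno1, enolase (3.07, SE 0.89, edgeR adjusted p = 0.0357), and the median of the 5 was 1.59. Of all 946 genes tested in pancreas 8.14% were called higher. A listed gene could pass the filter through its counts in caerulein alone. With ribosomal protein counts as library sizes 0 of the 946 genes were called, so the calls of Slc25a3, Ldha and Eno1 depend on the scaling. No citrate cycle enzyme and no regulator passed the filter in pancreas. The mitochondrially encoded transcripts held 2.71 to 81.7 counts per count on the 94 members, highest in acetone library 1, which was shallow.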

How the data were processed

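The members and lists were chosen with earlier results of these data known. Smart-Seq2 libraries of total RNA were sequenced, and the authors mapped reads to mm10 with STAR 2.5.3 and quantified them with RSEM 1.3.1, per the labels, which also name DESeq2 1.24.0. The deposited values are expected counts per gene, estimated and not normalized, and were rounded here to whole numbers. Genes were named from GENCODE M21 (55230 of 55471), with promoters from RefSeq GRCm38.p6. The motif search left out Atp5a1, Ndufa2 and any other member on their chromosome. The promoters of all genes were not restricted in this way. All value columns were used (0 left out). The annotation behind the counts was not given in the sources used here.

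The main test was edgeR 4.0.16 in R 4.3.3 (filterByExpr, minimum count 10, TMM, glmQLFit, glmQLFTest, Benjamini-Hochberg over all genes tested, threshold 0.05), with each tissue fitted apart and without covariates. DESeq2 1.42.0 was an alternative. Genes left out by the filter have no test. The test was also run on simulated counts with large planted changes. That run does not show how the test performs on small differences or on shifts in composition. Members were named if they passed the threshold in any of the 4 comparisons, had one of the 3 largest rises or falls among those tested in skin or pancreas, belonged to an isoform family, were core subunits, or were among the 5 highest per length in a group. A predicted gene was called satellite-like where 25% or more of its 15-base words occurred in 3 seed genes of that kind. Shares used protein-coding genes outside these and outside the mitochondrial genome. In each library 3 counts were 0.000349% to 0.00665% of that sum. Reads carry no molecular identifiers, so intervals cover counting error only. None of 40 library pairs within groups agreed within sampling noise (chi-square per degree of freedom 3.01 to 87.1). Of the members, 31 had values that were not whole (tolerance 1e-06) in at least 1 library, and 13 non-coding copies of members, left out by the rule, held 483 counts beside 64186 on members. The second entry of Atp5o held 1 count. The comparison with receptor genes, transcript lengths, overlap of groups, the unfiltered Ndufa4l2 values, the isoform shares with single libraries left out and the short NRF1 motif, which replaced a longer one, were added after seeing the data.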

Additional observations from a re-analysis of the deposited data

Results flagged for a closer look

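In 40 groups of 5 libraries, 3 held a library that stood apart by Dixon's ratio (the gap to the nearest library over the group's range, critical value 0.71). For groups picked without regard to their values, chance gives about 1 in 20, or 2 groups. Most groups here were values of members picked for their fold changes, and Ndufa4l2 was picked after its values were seen. The 1 in 20 therefore does not apply to them. Ndufa7 had 62.5 normalized CPM in acetone library 2 beside 25.2 in the next (ratio 0.751). Ndufc1 had 45.4 in the same library beside 13.97 (ratio 0.745). Ndufa4l2 had 10.2 in DNFB library 5 beside 2.23 in the next (ratio 0.781), which rests on 6 counts.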

How the results depend on the processing

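No paired analysis was possible because the labels number the libraries from 1 to 20 and no number is shared between groups. In skin the count of members called stayed at 0 under every alternative except no filter, where it was 1 (beside 0.25% of all genes). Leaving out each library in turn gave 0 to 0 with medians of -0.25 to 0.24. Over all these alternatives 0% to 0.4% of all genes were called. For the other comparisons the brackets give the share of all genes called. In pancreas 11 members were called when libraries were scaled by their totals alone (60.5%), 0 with ribosomal protein counts (0%) and 25 with no filter (3.33%). At a minimum count of 5 there were 2 (3.72%), and in DESeq2 20 (8.53% of genes given an adjusted p). With the satellite-like genes left out there was 1, which was Atp5b and not Atp5a1 (7.07%). With the label series (1 to 10 or 11 to 20) as a covariate there were 0 (10.7%), and with both tissues in 1 fit 4 (1.55%). At an unadjusted p under 0.05 there were 3, all higher, where 17.2% of all genes were higher. Leaving out 1 library gave 0 to 3 calls (0.883% to 21%) and medians of 0.32 to 0.85. The count was 0 without each of PBS 7, 15, 16 and 17 and caerulein 10, 19 and 20. It was 2 without caerulein 9 (17.1%) and 3 without PBS 8 (21%). The median was 2.59, 2.11, 1.66 and 1.22 with library totals, no filter, DESeq2 and both tissues in 1 fit. Between the controls 10 were called with library totals (57.1%), 1 with ribosomal protein counts (Ndufa2, lower, 13%) and 23 with no filter (3%). With the satellite-like genes left out, 10 members were tested, with a median of -0.18 (4 above 0 and 6 below). Then 2 were called higher, Atp5a1 and Atp5b, and 1 lower, Ndufa2 (20.9%). Cox6c was not called there. At a minimum count of 5 there were 6 (14.7%), and in DESeq2 23 (3.13% of 40039 genes with counts). Without acetone 11 and 12 there were 0 (11.5%), and with 1 library left out 1 to 10 (13.5% to 35.3%). Ndufa2 was also called lower without acetone 1 (30.8%) and without each of PBS 8, 15, 16 and 17 (16.6% to 33.9%). For the interaction the count was 13 with no filter (2.24%) and 8 in DESeq2 (5.41% of genes given an adjusted p). With 1 library left out it was 0 to 4 (0% to 6.47%). It was 4 without acetone 3 (6.47%) or caerulein 9 (3.4%) and 1 without PBS 8 (2.31%). As a share of all counts the members took 0.307%, 0.292%, 0.0228% and 0.181% in acetone, DNFB, PBS and caerulein, of ribosomal protein counts 34.4%, 26.2%, 21.5% and 28.0%, and in PBS 0.208% of the counts outside the satellite-like genes. With 1 library left out the shares were 1.03% to 1.38%, 1.10% to 1.48%, 0.266% to 0.325% and 0.861% to 1.13%. Ndufc1 in skin ran from -0.83 to 0.14 with 1 library left out (0.14 without acetone 2), and Ndufa2, Uqcrq and Ndufb7 in pancreas turned to 0.92, 1.14 and 1.47 with library totals, and Ndufb7 to 0.22 with no filter. The causes were not tested. Depth limits the PBS libraries most, with 84 to 613 counts on all 94 members.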
